A study of Mus musculus with 18 samples.

Results

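Growth hormone acts on the liver through a short relay, and the 9 genes described here make up its core in mouse liver: Ghr, Jak2, Stat5a, Stat5b, Socs2, Cish, Igf1, Igfals and Egfr. They were chosen by name from the pathway, with the RNA-seq difference between genotypes already known, in which Socs2 is among the strongest falls, and they are 9 of the 15572 genes in the count table. All 9 passed the filter on low counts. Their RNA-seq values are therefore a description. No p-value is given for a member, and nothing is read from which members were past the threshold.

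The study asked what JMJD1C, a histone demethylase that removes methyl groups from lysine 9 of histone H3, does in the liver when mice eat. The data came from livers of C57BL/6J mice, either WT or JMJD1C-LKO, a liver-specific knockout in which Cre driven by the albumin promoter removes Jmjd1c. Mice were kept on chow for 6 to 8 weeks per the labels, fasted overnight and, for the refed groups, given a high-carbohydrate diet. The labels state 6 h of refeeding for every sample, those titled as fasted included, so fasted and refed rest on the titles and the reporting summary of the study. The methods give 12 weeks of age in general and a refeeding of 8 to 16 h. RNA-seq compared refed WT with refed JMJD1C-LKO livers, in 2 pooled RNA samples per genotype. ATAC-seq, which marks open chromatin, covered fasted WT, refed WT and refed JMJD1C-LKO livers, and ChIP-seq of H3K9me2, the dimethylated lysine 9, covered fasted and refed WT livers, with 2 single livers in each group. Nothing in the sources used here says how many mice were pooled for RNA, so p-values below measure the spread between these pools.

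Growth hormone binds its receptor GHR, which activates the kinase JAK2 at the cell membrane. JAK2 phosphorylates STAT5A and STAT5B, which enter the nucleus and bind sites in DNA near their target genes, among them Igf1, Igfals, Socs2 and Cish. IGF1 carries much of the growth signal into the blood, IGFALS (the acid-labile subunit) holds it there in a complex with a binding protein, and SOCS2 and CISH act back on the receptor to end the signal. The liver is the main source of circulating IGF1, and the timing of growth hormone pulses sets which liver genes differ between males and females.

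The short sequences that STAT5 binds share the core TTCNNNGAA, which reads the same on both strands, so one search covers both. RefSeq promoter windows of GRCm38.p6, taken here as the 250 bases before each annotated start, were matched by symbol for 8 of the 9 genes, in 13 windows, and Socs2 was not among them. The core was present in 2306 of 32841 windows over all genes (7.02%) and in 2 of the 13 member windows, both of Igfals. The windows printed, 5′ to 3′ on the strand of the gene, were picked because the results below turn on them: the 2 Igfals windows with the core in capitals, the Cish window next to the only member start with an ATAC-seq summit, and the Egfr window next to the start with the best-ranked H3K9me2 summit.
Igfals, chr17:24877594-24877843, plus strand, before the start at 24877844: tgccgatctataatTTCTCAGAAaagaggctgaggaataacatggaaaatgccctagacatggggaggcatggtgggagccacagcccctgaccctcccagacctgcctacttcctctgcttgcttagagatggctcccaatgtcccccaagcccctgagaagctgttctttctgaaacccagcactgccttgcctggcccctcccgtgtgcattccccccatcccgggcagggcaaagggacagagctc
Igfals, chr17:24877981-24878230, plus strand, before the start at 24878231: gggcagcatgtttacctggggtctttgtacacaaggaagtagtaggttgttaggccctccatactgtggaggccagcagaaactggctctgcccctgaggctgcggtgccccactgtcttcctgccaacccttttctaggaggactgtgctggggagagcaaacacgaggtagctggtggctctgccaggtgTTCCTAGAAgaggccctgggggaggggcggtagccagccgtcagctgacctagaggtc
Cish, chr9:107296409-107296658, plus strand, before the start at 107296659: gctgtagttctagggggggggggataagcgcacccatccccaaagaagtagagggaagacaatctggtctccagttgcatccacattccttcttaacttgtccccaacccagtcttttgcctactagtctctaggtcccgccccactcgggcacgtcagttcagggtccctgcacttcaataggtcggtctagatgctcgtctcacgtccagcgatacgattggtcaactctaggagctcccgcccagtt
Egfr, chr11:16751953-16752202, plus strand, before the start at 16752203: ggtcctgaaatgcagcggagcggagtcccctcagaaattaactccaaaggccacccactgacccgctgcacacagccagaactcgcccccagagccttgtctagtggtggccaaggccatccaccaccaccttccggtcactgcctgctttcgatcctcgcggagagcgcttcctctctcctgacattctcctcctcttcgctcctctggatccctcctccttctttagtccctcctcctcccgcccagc
The core begins 236 bases before the first Igfals start and 58 bases before the second. The third Igfals start, at 24878747, from which the counted transcript begins, had no core in its 250 bases. A match is a description of letters and does not show that a factor binds there. The member windows held 46.4% to 82.0% G and C, with a median of 59.6% against 52.4% over all windows, and the highest values stood before Stat5b (82.0%) and Jak2 (80.8%).

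The targeted gene itself was close to its WT level as a gene sum. Jmjd1c stood at 22.0 and 22.8 CPM (counts scaled to the library total) in the WT libraries and at 20.0 and 20.5 CPM in the libraries labelled JMJD1C-LKO, a log2 difference of -0.14 ± 0.08 (SE) that did not pass the test (edgeR quasi-likelihood test, adjusted p = 0.233). By RT-qPCR the paper reports a large drop of Jmjd1c mRNA in JMJD1C-LKO livers, with no JMJD1C protein detected there by immunoblot. The gene sum in these libraries does not show such a drop in RNA. Variant 1 was estimated at 859.6 and 708.9 counts in WT and 819.2 and 861.3 in the libraries labelled JMJD1C-LKO, which overlap. Variant 2, from a later start, was estimated at 280.4 and 479.1 counts in WT and at 170.8 and 267.7, which do not overlap. The split between the variants is an estimate. The counts are per whole transcript, and the exons removed are not given in the sources used here, so reads from the rest of the gene cannot check the deletion. The genotype of these libraries therefore rests on their labels, and every direction below is between libraries labelled JMJD1C-LKO and libraries labelled WT. Library totals ran from 51265155 to 54400531 estimated counts. Of the 14151 genes tested, 14.6% were higher and 13.4% lower in the libraries labelled JMJD1C-LKO at an adjusted p under 0.05, with a median log2 fold change of 0.01 over all genes.

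Markers of other liver cells moved with genotype. All 6 Kupffer cell and macrophage markers rose, and their summed level was 212 and 222 CPM in WT and 413.7 and 597 CPM in the libraries labelled JMJD1C-LKO. Of the 6 endothelial markers 5 rose, from sums of 96.9 and 97.9 CPM to 130.7 and 172 CPM. None of the 7 hepatocyte markers tested passed the test, Alb included, and their sum was 102100 to 117400 CPM. The other marker lists had 1 call among 6 lymphocyte, 1 among 6 stellate and 1 among 5 erythroid markers, all higher, and none among 5 cholangiocyte markers. The lymphocyte markers were scarce, but their sum was higher too. It was 3.97 and 3.89 CPM in WT and 7.04 and 8.84 CPM in the libraries labelled JMJD1C-LKO, with a median log2 fold change of 1.13. The part of these cells in the results below was not tested. In bulk liver, fewer cells of a type and less RNA per cell cannot be told apart.

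Levels of different genes were compared per length, in TPM (counts divided by transcript length and scaled to the library). In WT the receptor Ghr was the most abundant of the 9, with a mean of 209.8 TPM, followed by Igfals at 180.3 TPM, Egfr at 171 TPM and Igf1 at 149.9 TPM. Both WT libraries gave this order, although the ranges of Igfals (184.1 and 176.6 TPM) and Egfr (168.4 and 174 TPM) nearly met. Socs2 lay lower at 44.5 TPM, and Stat5b at 14.0 TPM, Cish at 6.83 TPM, Stat5a at 5.09 TPM and Jak2 at 2.81 TPM were the scarce members. In the libraries labelled JMJD1C-LKO the means were 200.4 TPM for Ghr, 131.6 for Egfr, 106.7 for Igf1, 103.5 for Igfals, 19.0 for Stat5b and 14.2 for Socs2. Igf1 and Igfals cannot be ordered there, since Igfals read 120.4 and 86.6 TPM and Igf1 114.4 and 98.9 TPM, and Stat5b, below Socs2 in both WT libraries, stood above it in both libraries labelled JMJD1C-LKO.

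**Figure D1:**
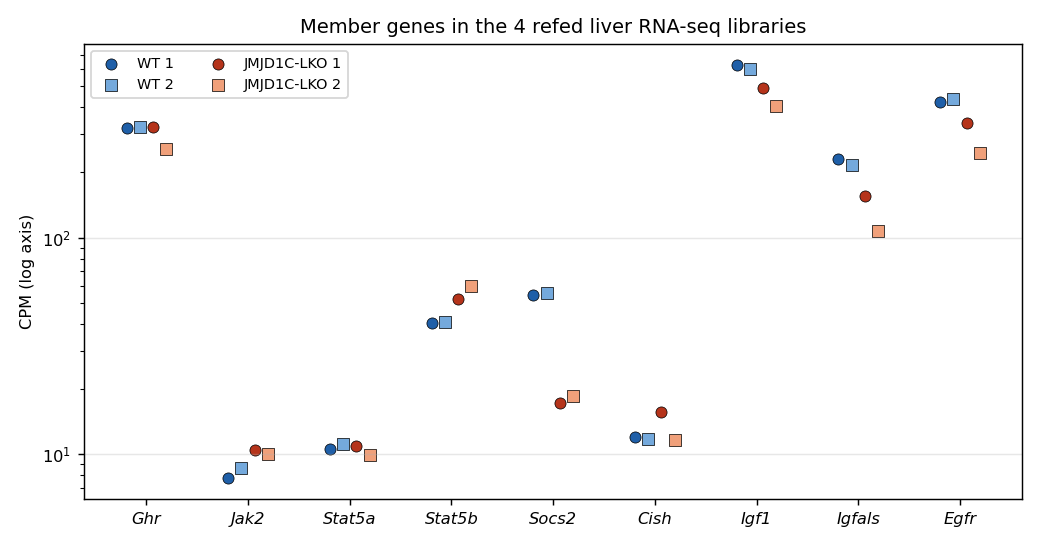
CPM of the 9 genes (x axis, in the order of the relay) in each of the 4 refed liver RNA-seq libraries, on a log axis. Each symbol is 1 library. Socs2 stands apart in its gap between genotypes, from 54.5 and 55.2 CPM in WT down to 17.3 and 18.5 CPM, while the symbols of Ghr, Stat5a and Cish overlap.

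The feedback genes parted. Socs2, the adaptor of a ubiquitin ligase that acts on the growth hormone receptor, read 54.5 and 55.2 CPM in WT and 17.3 and 18.5 CPM in the libraries labelled JMJD1C-LKO. Both pairs were tight and far apart, and the fitted level was 32.6% of WT (log2 fold change -1.62 ± 0.08 SE, n = 2 per group). Of the 14151 genes, 59 had a lower log2 fold change, and 12 of those had a WT mean of at least 10 CPM. Socs2 was chosen with this fall known, so its rank follows from the choice. Cish, the other SOCS family member of the axis, read 12.0 and 11.8 CPM in WT against 15.7 and 11.7 CPM. Its groups overlapped, because 1 library labelled JMJD1C-LKO was the highest and the other the lowest of the 4 (log2 fold change 0.20 ± 0.14 SE).

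All 4 annotated Socs2 transcripts contributed to the difference. Each encodes 198 codons, and they differ in where they start. Variant 4, which starts furthest downstream at chr10:95415283, carried 68.8% and 61.1% of Socs2 in WT, per length. Its mean TPM in the libraries labelled JMJD1C-LKO was 0.295 of WT, against 0.325 for variant 2, 0.342 for variant 3 and 0.412 for variant 1. On these estimates the fall was seen at each of the 4 starts, and the leading start moved no less than the others. The variants are 2074 to 2222 bases long and encode the same number of codons, so the estimated split between them is uncertain. Variant 3, for example, was estimated at 324.3 and 568.1 counts in the WT libraries.

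Of the secreted products, Igfals and Igf1 were both lower. Igfals read 231.7 and 217.5 CPM in WT and 156.3 and 107.3 CPM in the libraries labelled JMJD1C-LKO. The groups did not overlap, and the fitted level was 58.7% of WT (log2 fold change -0.77 ± 0.15 SE). Igf1 read 629 and 602 CPM in WT and 490.8 and 404.3 CPM in the libraries labelled JMJD1C-LKO. Its groups did not overlap either, at 72.7% of WT (log2 fold change -0.46 ± 0.10 SE). The share of all genes whose groups do not overlap was not counted. With 2 libraries against 2, an exact permutation test cannot give a two-sided p below 0.333. Separate groups are therefore only a description, here and for the other members. For both genes library 2 of the JMJD1C-LKO label lay further from WT than library 1.

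Igf1 is read from 3 annotated starts, and the choice of start and of the last exons decides the signal peptide and the tail of the precursor, not the mature hormone. The start at chr10:87861111 gave 88.4 and 86.0 TPM in WT and 63.6 and 57.0 TPM in the libraries labelled JMJD1C-LKO, 30.9% lower on the means. The start at 87859052 gave 61.1 and 61.2 TPM in WT and 48.9 and 40.2 TPM, 27.1% lower. The third, at 87858265, held under 2 TPM in every library. Both working starts were lower by a similar share, so the mix of Igf1 starts was close to that of WT.

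The receptor Ghr overlapped between genotypes as a whole gene but not in its 2 main transcripts. Ghr read 321.7 and 325.8 CPM in WT and 324.4 and 257.3 CPM in the libraries labelled JMJD1C-LKO (log2 fold change -0.15 ± 0.11 SE). Variant 4, with 11 exons and 650 codons, encodes the full receptor. It was estimated at 11847 and 12205 counts in WT and 10748 and 8842 counts in the libraries labelled JMJD1C-LKO. Variant 2, with 9 exons and 297 codons, ends early and encodes the secreted growth hormone binding protein. It was estimated at 4374 and 4274 counts in WT and 4804 and 4926 counts in the libraries labelled JMJD1C-LKO. Per length the shorter transcript made up 51.7% and 50.3% of Ghr in WT and 56.3% and 61.6% in the libraries labelled JMJD1C-LKO. The shares did not overlap, with a shift of 7.96 percentage points. How many genes had separate shares with a shift as small as this was not counted, so the Ghr shift is only a description. The split between the Ghr transcripts is an estimate.

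Egfr, the receptor for epidermal growth factor whose level in liver is kept up by growth hormone, showed the wider shift. The gene read 424 and 435.7 CPM in WT and 337.2 and 245.6 CPM in the libraries labelled JMJD1C-LKO, with no overlap, at 67.8% of WT (log2 fold change -0.56 ± 0.13 SE). Variant 1, of 28 exons and 1210 codons, encodes the full receptor with its kinase. It was estimated at 14893 and 15835 counts in WT and 8540 and 6787 counts in the libraries labelled JMJD1C-LKO, and its mean TPM was 0.49 of WT. Variant 2, of 16 exons and 655 codons, stops before the exons of the membrane span and kinase. It was estimated at 7088 and 6892 counts in WT and 8121 and 6750 counts, which overlap, with a mean TPM of 1.04 of WT. On these estimates the difference in Egfr was seen in the transcript of the full receptor, where the groups were separate. It was not seen in the shorter one. The split between the Egfr transcripts is an estimate too.

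Shifts of share wider than that of Ghr were not rare. Among 5020 tested genes with 2 or more transcripts, 14.6% had a leading transcript whose share moved by at least 10 percentage points with no overlap between genotypes. Of the 8 members with several transcripts 2 did, Egfr and Jak2. In Egfr the share of variant 2 rose by 18.1 percentage points, and in Jak2 the share of variant 2 fell by 19.8 percentage points, from 69.6% to 49.8%. Both Jak2 variants encode 1132 codons and differ by 1 exon, and the estimated split between such similar transcripts is uncertain.

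**Figure D2:**
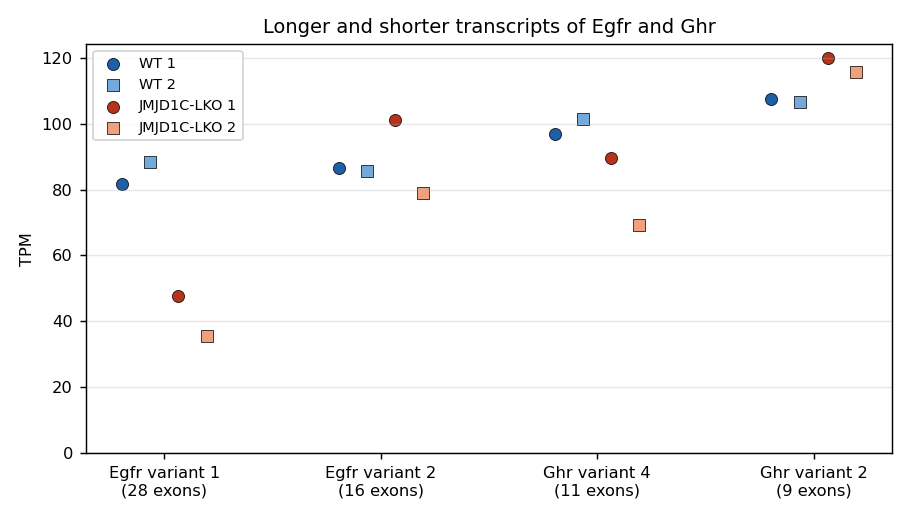
TPM of the longer and shorter transcripts of Egfr and Ghr (x axis) in each of the 4 RNA-seq libraries, on a linear axis from 0. The full-length Egfr variant 1 lies lower in both libraries labelled JMJD1C-LKO, while the symbols of variant 2 overlap, and for Ghr the longer variant is lower and the shorter one higher in these libraries.

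Of the kinase and the transcription factors, Stat5b was the clearest difference. Stat5b, the main STAT5 of liver, read 40.3 and 40.9 CPM in WT and 51.9 and 59.9 CPM in the libraries labelled JMJD1C-LKO. The groups were separate, at 138% of WT (log2 fold change 0.46 ± 0.09 SE). Its main transcript, variant 2, was separate too, at 10.6 and 13.1 TPM in WT and 15.1 and 17.1 TPM in the libraries labelled JMJD1C-LKO, whereas variant 1 overlapped, at 3.07 and 1.21 TPM in WT and 2.14 and 3.64 TPM. Stat5a, its close paralog, read 10.6 and 11.1 CPM in WT and 10.9 and 9.91 CPM, which overlap (log2 fold change -0.06 ± 0.11 SE). Jak2 read 7.74 and 8.67 CPM in WT and 10.5 and 9.98 CPM in the libraries labelled JMJD1C-LKO. Its groups were separate but close (log2 fold change 0.32 ± 0.12 SE), and with the leading transcript in place of the gene sum the log2 fold change was -0.17. The estimated counts of Stat5a and Stat5b may share reads, since the genes are near-identical in part.

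Counted over the 9 members, 4 were past the threshold as lower (Socs2, Igfals, Egfr and Igf1), 1 as higher (Stat5b) and 4 were not past it, beside 13.4% and 14.6% of all genes. The choice of members used this contrast, so nothing is read from that count. The median log2 fold change of the 9 was -0.15. In 7 of the 9, a count not set against all genes and from which nothing is read, the library labelled JMJD1C-LKO 2 read lower than library 1. Without that library the log2 fold change of Egfr, which was -0.996 for variant 1 alone, its most abundant transcript by count though not per length, was -0.35 and that of Igfals -0.52, whereas Socs2 kept between -1.73 and -1.57 in all alternatives run.

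**Figure D3:**
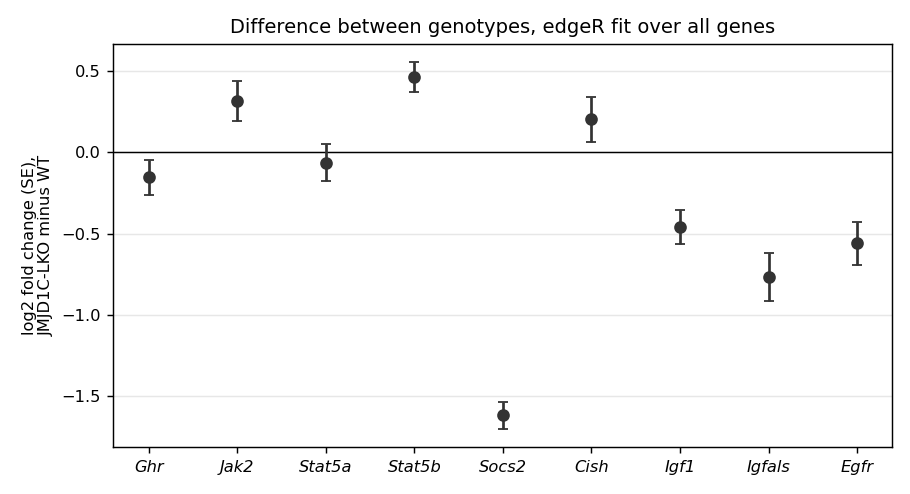
Log2 fold change between refed libraries labelled JMJD1C-LKO and refed WT libraries (y axis) for the 9 genes (x axis), with bars of 1 SE from the edgeR fit over all genes, 2 libraries per group. Socs2 lies at -1.62, the other genes lie between -0.77 and 0.46.

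The genes with the pattern most like Socs2 over the 4 libraries were found by the distance between log2 CPM values centred on each gene's mean. The 5 nearest were Ppan at a distance of 0.235, Gm38426 at 0.236, 2210416O15Rik at 0.246, Cdca7 at 0.247 and BC021767 at 0.300. Ppan, a factor of ribosome assembly in the nucleolus, was the most abundant of them, at 39.7 and 42.3 CPM in WT and 15.2 and 16.1 CPM in the libraries labelled JMJD1C-LKO. Cdca7 read 3.32 and 3.01 CPM in WT and 1.15 and 1.20 CPM. 2210416O15Rik stayed under 0.24 CPM in all 4 libraries. With 4 libraries in 2 genotypes, such a list holds genes whose log2 CPM falls by a similar size with little spread. At so low a level this says little for 2210416O15Rik, whose fitted log2 fold change was -1.90 ± 0.67 SE.

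Around the members, 110 further genes were read in 8 lists, of which 106 were tested: 28 were higher, 17 lower and 61 not past the threshold in the libraries labelled JMJD1C-LKO. Of all genes tested, 14.6% were higher and 13.4% lower. These lists were set with earlier results of the data known, so their counts and medians are a description. For the genes named below from the lists, adjusted p values are from edgeR's quasi-likelihood test over all 14151 genes.

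Among 13 receptors, JAK kinases and STAT factors, 4 were higher and 1 lower, with a median log2 fold change of 0.15. The one that fell was Prlr, the prolactin receptor, which also signals through JAK2 and STAT5. It read 188.4 and 186.8 CPM in WT and 118.4 and 108.5 CPM in the libraries labelled JMJD1C-LKO (log2 fold change -0.73 ± 0.08 SE, adjusted p = 0.000356). Stat3, the factor of interleukin-6 signalling, rose from 66.6 and 65.4 CPM to 88.5 and 94.5 CPM (0.47 ± 0.08 SE, adjusted p = 0.00246). Stat4, Tyk2 and Jak3 rose as well, with adjusted p of 0.0159, 0.0383 and 0.0444, but with either WT library left out none of these 3 was past the threshold, and Stat3 was not past it without WT library 2 (adjusted p = 0.0597). Jak3 and Stat4 are best known from blood cells. Their changes stood beside the rise of the macrophage markers and of the lymphocyte sum given above, whose part was not tested. Jak1, Insr and Igf1r did not pass the test, with log2 fold changes of -0.05, 0.11 and 0.15.

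Among 17 negative regulators of JAK-STAT signalling, 4 were higher and 3 lower, with a median log2 fold change of 0.02. Sirpa, Sh2b3, Ptpn6 and Socs7 rose by 0.94, 0.54, 0.51 and 0.34 on the log2 scale. SIRPA, the adaptor SH2B3 and the phosphatase PTPN6 are abundant in myeloid cells. Socs6 (log2 fold change -0.63 ± 0.14 SE), Pias1 (-0.37 ± 0.10 SE) and Pias2 (-0.30 ± 0.09 SE) fell. With either WT library left out, Sh2b3, Socs7, Socs6, Pias1 and Pias2 were not past the threshold, nor was Ptpn6 without WT library 2, and Socs7 and Pias2 were not past it with DESeq2 either. Socs3, the SOCS gene induced by STAT3, read 9.97 and 9.22 CPM in WT and 8.72 and 10.5 CPM in the libraries labelled JMJD1C-LKO, and Socs1 stayed under 0.62 CPM. Of the SOCS family genes measured, Socs2 had the lowest log2 fold change, but it was chosen with that fall known, so nothing is read from this.

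Among 12 IGF ligands, binding proteins and their proteases, 9 were tested, and 1 passed the test. Igfbp1, a binding protein that insulin represses in liver, rose from 4.92 and 6.19 CPM in WT to 375.2 and 830 CPM in the libraries labelled JMJD1C-LKO. Both libraries were far above WT though unlike each other, and the fitted rise was 108-fold (log2 fold change 6.76 ± 0.37 SE, adjusted p = 1.1e-05). The abundant binding proteins did not pass the test: Igfbp4 had a log2 fold change of 0.09 and Igfbp2 one of -0.06. Igfbp3, which with IGFALS forms the circulating complex of IGF1, read 31.5 and 40.1 CPM in WT and 38.7 and 50.6 CPM, which overlap.

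Among 11 members and ligands of the EGF receptor family, 10 were tested, 2 were higher and none lower, while 8 did not pass the test. Errfi1, a feedback inhibitor of the EGF receptor kinase, rose from 586 and 554 CPM to 1035 and 1156 CPM (log2 fold change 0.94 ± 0.09 SE, adjusted p = 0.000176). Erbb3, a receptor that pairs with the others, rose from 23.6 and 23.3 CPM to 32.2 and 38.2 CPM (0.59 ± 0.10 SE, adjusted p = 0.00253). The transcript of the full EGF receptor and its inhibitor thus stood in opposite directions in the same libraries.

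Among 13 liver transcription factors tied to growth hormone, 7 were lower and 1 higher, beside 13.4% and 14.6% of all genes. Their median log2 fold change was -0.37 against 0.01 over all genes. The list was set with earlier results known, so nothing is read from its count or median. Cux2, a repressor that growth hormone raises in female liver, fell from 22.4 and 21.6 CPM to 6.11 and 10.6 CPM (log2 fold change -1.39 ± 0.20 SE, adjusted p = 0.0012). Onecut1, also called HNF6, fell from 25.6 and 26.6 CPM to 12.9 and 9.58 CPM (-1.22 ± 0.13 SE, adjusted p = 0.000313). Foxa2 and Trim24 fell by 0.60 and 0.49 on the log2 scale, but Trim24 was not past the threshold with either WT library left out, nor Foxa2 without WT library 1. Cebpb, a factor of the acute-phase response, rose from 55.1 and 48.4 CPM to 91.0 and 122.8 CPM (1.05 ± 0.13 SE, adjusted p = 0.000662). Bcl6, the repressor that growth hormone lowers, read 52.4 and 51.1 CPM in WT and 42.1 and 54.2 CPM, which overlap, and Hnf4a had a log2 fold change of -0.12.

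The genes that growth hormone sets differently in the sexes moved both ways. Y-linked Ddx3y, Eif2s3y, Kdm5d and Uty were read in all 4 libraries, from 6.82 CPM for Uty up to 55.9 CPM for Ddx3y, and Xist stayed between 0.526 and 1.36 CPM. Of these 5, Kdm5d alone was past the threshold, with a log2 fold change of -0.63, and it was not past it with either WT library left out. Of 19 male-biased targets 9 rose, none fell and 10 did not pass the test. Elovl3, a fatty acid elongase, rose from 4.32 and 3.68 CPM to 32.4 and 20.4 CPM (log2 fold change 2.72 ± 0.21 SE, adjusted p = 5.82e-05), and Selenbp2 rose from 89.8 and 75.1 CPM to 198.9 and 131.5 CPM. Mup11 and Cyp4a12b rose too, by 1.48 and 0.97, but Selenbp2 and Cyp4a12b were not past the threshold without WT library 2, and the Mup and Cyp4a genes have near-identical copies among which estimated counts may be split. The summed level of the list, most of it from Mup genes, overlapped between genotypes at 13640 and 13300 CPM in WT and 18570 and 12510 CPM in the libraries labelled JMJD1C-LKO.

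Of 20 female-biased targets 7 rose, 5 fell and 8 did not pass the test. Hao2, a peroxisomal oxidase, fell from 19.4 and 17.7 CPM to 1.52 and 2.25 CPM (log2 fold change -3.29 ± 0.17 SE, adjusted p = 1.03e-05). Cyp2a4, with near-identical copies of its own, fell from 267 and 247 CPM to 25.1 and 51.2 CPM, and A1bg fell from 7.54 and 6.38 CPM to 2.12 and 1.40 CPM. Abcd2, a peroxisomal transporter, fell by 0.70 on the log2 scale. In the other direction Sult2a1, a sulfotransferase, rose from 0.463 and 0.230 CPM to 7.29 and 17.1 CPM, and Cyp2b10 from 1.99 and 2.01 CPM to 11.9 and 22.7 CPM. Cyp17a1 and Nipal1 rose by 1.41 and 1.67 on the log2 scale. Female-biased genes therefore did not move as a group in 1 direction.

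**Figure D4:**
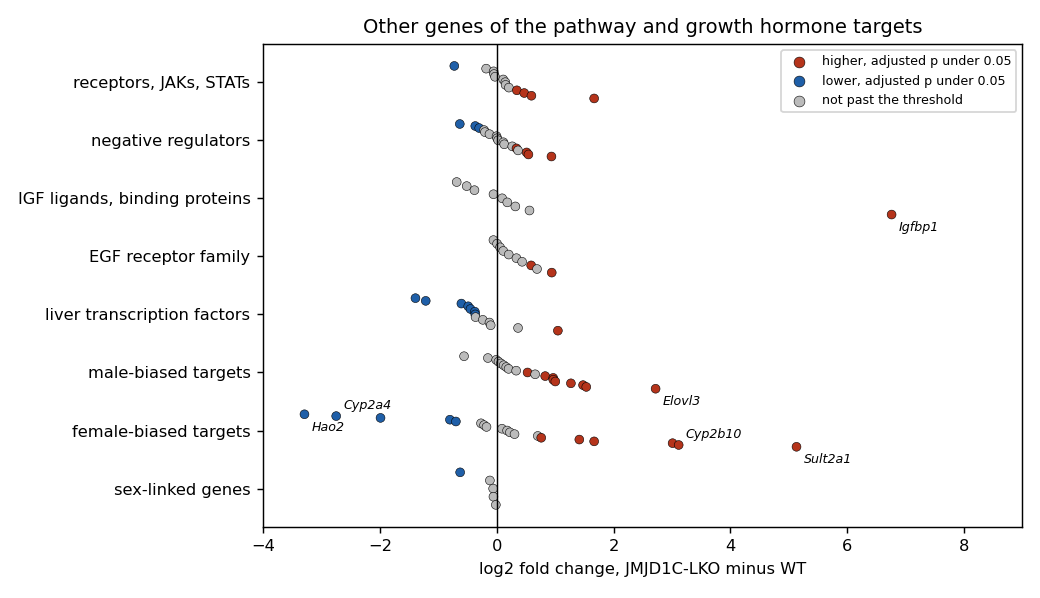
Log2 fold change (x axis) of each tested gene of the 8 pathway lists (y axis), with genes past an adjusted p of 0.05 in red when higher and blue when lower in the libraries labelled JMJD1C-LKO, and grey otherwise. A gene with no count in either WT library is left out. Igfbp1 stands far to the right at 6.76, most transcription factors lie left of 0, and the male-biased targets with a call all lie right of 0.

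Chromatin at the members was read from summit lists, one per liver, that give the position of each peak's summit with a score, the −log10 of its q-value. A summit was set to a gene when it lay within 1000 bp of any annotated start of that gene. The depth of these samples is unknown from the lists, so scores were ranked within a sample and not set against each other. With 2 livers against 2 an exact permutation test cannot give a two-sided p below 0.333, so no test was run.

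The Cish start was the only member start with an ATAC-seq summit. The start held none in either fasted WT liver, 1 in each refed WT liver, 32 and 12 bp downstream of the start, and 1 in 1 of the 2 refed livers labelled JMJD1C-LKO, 10 bp downstream. The scores were 7.59 (rank 1309 of 5027 summits), 13.6 (rank 397 of 3119) and 6.96 (rank 717 of 1450). No other member start held a summit in any of the 6 livers. Summits lay near the starts of 20.3% and 9.28% of 14118 expressed genes in the fasted WT livers, 16.8% and 10.6% in the refed WT livers, and 6.76% and 1.39% in the refed livers labelled JMJD1C-LKO. With only the 825 strongest summits kept per liver, the summit in refed WT liver 1 was lost. The last liver had the shortest list, 825 summits, so an absent summit there says little about Cish. How many genes had a summit in both refed and in neither fasted WT liver was not counted. No effect of feeding is therefore read from the absence at Cish in the fasted livers.

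Away from starts, few summits lay near the members. The nearest to Igfals lay 7838 and 7804 bp downstream of its start in the refed WT livers, but 58 and 92 bp from the start of Spsb3, the neighbouring gene. Within Egfr a summit lay 127168 bp after the start in fasted WT liver 1 (score 7.53, rank 1601 of 5220) and in no other liver. Within Ghr a summit lay 246996 bp after the start of variant 4 in fasted WT liver 2 (score 4.88, rank 1809 of 7632), with another beyond the end of the gene, 267825 bp after that start (score 6.81, rank 896), and neither appeared in another liver. For Socs2 the nearest summit was at least 92915 bp away in each of the 6 livers. Cish aside, no ATAC-seq summit was thus detected within 1000 bp of a member start in these lists, in WT or in the livers labelled JMJD1C-LKO.

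H3K9me2, a mark mostly found at silent genes, had summits that were common at member starts, as at starts in general. In fasted WT liver 1, 6 of the 9 starts had one (Ghr, Igf1, Igfals, Stat5b, Jak2 and Egfr), and in fasted WT liver 2 all 9 did. In refed WT liver 2, 8 of 9 did, Socs2 being the exception, and in refed WT liver 1 none did. Among 14118 expressed genes the shares were 51.5% and 74% in the fasted livers and 61.5% in refed liver 2. Refed liver 1 stands apart, with 1297 summits in all and 0.135% of genes. The 2 refed livers therefore do not allow a comparison of fasted with refed at these genes.

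Among the members the score ranks differed widely. Egfr ranked highest in each of the 3 informative livers, at rank 864 of 7690 and 860 of 13456 in the fasted livers and 222 of 9929 in refed liver 2. Its summits lay 322, 315 and 373 bp after the start, so the position was alike in the 3 livers. Keeping only the 1297 strongest summits per liver, Egfr was the only member with one. Ghr followed in fasted liver 2, at rank 1791, with summits 97 and 42 bp before the start of variant 4, which makes the full receptor, in the fasted livers and 307 bp after it in refed liver 2. Stat5b had summits 157, 239 and 302 bp after the start of its main transcript in the same 3 livers.

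The feedback genes and Stat5a had summits in fewer livers and of lower rank. Socs2 had an H3K9me2 summit in fasted liver 2 alone, 284 bp after its first start, at rank 7899 of 13456. Cish had one in fasted liver 2 (426 bp after the start, rank 6797) and in refed liver 2 (484 bp, rank 8730 of 9929). Igfals, 251, 179 and 221 bp after its start, ranged from rank 7344 of 7690 in fasted liver 1 to rank 2686 of 13456 in fasted liver 2, so ranks at a single gene varied between livers of 1 group. Stat5a had a summit in fasted liver 2, 330 bp before its start at 100860484 (rank 7956 of 13456). In refed liver 2 it had one 227 bp before the same start (rank 8006 of 9929). Igf1 and Jak2 had a summit in all but refed liver 1. No H3K9me2 sample of JMJD1C-LKO liver was analysed here, so the mark cannot be set beside the RNA difference.

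**Figure D5:**
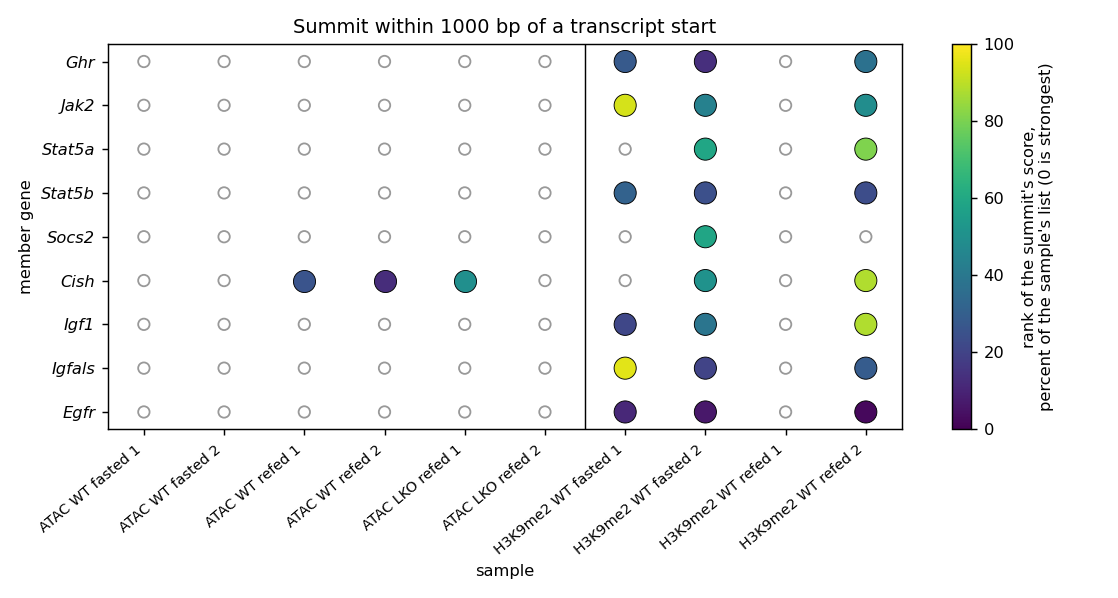
Filled circles mark a summit within 1000 bp of a member's start (y axis) in each ATAC-seq and H3K9me2 sample (x axis), coloured by the rank of its score as a percent of that sample's list, with 0 the strongest. Open circles mark none. Cish is the only member with ATAC-seq circles, and the H3K9me2 column of refed liver 1 is empty.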

How the data were processed

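Libraries were grouped by the sample titles and genotypes, with fasted and refed read from the study's reporting summary. The deposited RNA-seq table gives unscaled estimated counts for each RefSeq transcript, as the authors made it, and the submitters' processing notes name HISAT2, Partek and DESeq2 without roles. For ATAC-seq and ChIP-seq the authors called peaks per sample with MACS2 on mm10, with input as the control for ChIP-seq, and deposited summits with the −log10 of the q-value. A second deposited table holds the authors' own comparison and was not used. Transcripts were matched to RefSeq of GRCm38.p6 by identifier (24823 of 24994).

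Estimated counts were summed per gene and rounded. Genes were kept by filterByExpr and tested with edgeR 4.0.16 (TMM, quasi-likelihood F test, Benjamini-Hochberg over 14151 genes, threshold 0.05). The script was tested on simulated data. CPM is TMM-scaled, and TPM uses RefSeq exonic lengths. Alternatives were DESeq2 1.42.0, RLE size factors, no filter, a replicate block, the most abundant transcript, each library left out, and other windows, scores and list lengths for summits.

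Members and lists were chosen with earlier results of these data known. Genes named are the members, Jmjd1c, up to 4 genes per list and direction by smallest p, all sex-linked genes, and the 5 genes nearest Socs2. List genes that did not pass (Jak1, Insr, Igf1r, Socs1, Socs3, Igfbp2, Igfbp3, Igfbp4, Bcl6 and Hnf4a) were named after their values were seen.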

Additional observations from a re-analysis of the deposited data

How the results depend on the processing

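The number of genes called, 3958 in the main test, was 3292 with DESeq2, 3919 with RLE size factors, 3886 with no filter and 4207 with the replicate block, and 2326 with the most abundant transcript. For the replicate block, same-numbered libraries did not deviate together between genotypes (correlation of their differences -0.00461), so the numbers do not pair them. Leaving out 1 library gave 1068 to 5180 calls, with 1068 without WT replicate 2 and 1265 without WT replicate 1, and a lone library is then assumed to vary like the other group. For the pathway lists, 45 calls became 21 to 54 when a library was left out, with 21 and 24 without WT replicates 2 and 1. In both of those, fewer members were past the threshold, as were fewer of all genes tested, and nothing is read from that count. Without WT replicates 1 and 2 in turn, the log2 fold changes were -1.63 and -1.61 for Socs2 and -0.73 and -0.82 for Igfals. They were -0.58 and -0.55 for Egfr, -0.43 and -0.50 for Igf1, and 0.45 and 0.47 for Stat5b. The median log2 fold change of the 9 members, -0.15, was -0.29 with the most abundant transcript and ran from -0.34 without JMJD1C-LKO replicate 1 to 0.003 without JMJD1C-LKO replicate 2. The direction of Socs2, Igf1, Igfals, Egfr and Stat5b held under each alternative run, and the causes of the other shifts were not tested. Of 33 named list genes past the threshold, 18 were past it under each alternative and 15 were not under at least 1, namely Stat3, Stat4, Tyk2, Jak3, Sh2b3, Ptpn6, Socs7, Socs6, Pias1, Pias2, Foxa2, Trim24, Selenbp2, Cyp4a12b and Kdm5d. With the 1297 strongest H3K9me2 summits per sample, members with one fell from 9 to 1, as that list is shorter by construction. The ATAC-seq count over all livers stayed at 1 member, but with 825 summits per sample Cish had none in refed WT liver 1. Summit depth is unknown, and the RNA-seq rests on 2 pools per genotype.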
